A study of Mus musculus with 18 samples.

Results

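The genes described here make, sense and move cholesterol. They are 28 genes chosen by name: the enzymes of cholesterol synthesis, the proteins that set the activity of the pathway, and the carriers and transporters that move cholesterol. Of the 28 genes, 25 had a probe set in the array's annotation, and each was represented by its brightest one among 52 probe sets. All 25 passed the filter on dim probe sets and were tested among 14694 genes, while Acat2, Soat2 and Nr1h2 were not analysed here. Liver RNA was measured on 18 Affymetrix arrays of C57BL/6 mice, 3 for each of 6 groups. The AIM-KO groups carried the AIM-/- genotype and were fed normal chow (0 weeks of high-fat diet), a high-fat diet (HFD) for 12 weeks, or HFD for 20 weeks. The WT groups were AIM+/+ and had the same 3 diets. AIM is a protein secreted by tissue macrophages and encoded by Cd5l. The labels call the samples biological replicates without saying that each came from a separate animal, and they give neither age nor sex, so weeks on HFD and age cannot be told apart and p-values measure the spread between these samples. The labels do not say how the deletion was made.

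Cells build cholesterol from acetyl units through mevalonate and isoprenoid intermediates to squalene, close squalene into lanosterol, and then trim and reduce lanosterol in a series of steps. The transcription factor SREBP-2, made from Srebf2, turns on most of these enzymes together when membranes are poor in sterol. It must be escorted out of the endoplasmic reticulum by SCAP, and the INSIG proteins hold that escort back when sterol is plentiful. The liver is a main site of this synthesis, and it also secretes cholesterol into bile through the paired transporters ABCG5 and ABCG8.

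The stretches before the gene starts are shown for the genes on which the results turn, because SREBP-2 and its partner factor NF-Y act through short motifs there. Each of the first 5 lines is the window of 250 bases before a start site, read 5′ to 3′ on the gene's own strand from the RefSeq promoter table of build GRCm38.p6. Capitals mark CCAAT on either strand (ATTGG when read on the other strand) and the sterol element core TCACNCCAC. Hmgcs1 (chr13:119690101-119690350, plus strand), Mvd (chr8:122443423-122443672, minus strand) and Hsd17b7 (chr1:169969206-169969455, minus strand) are enzymes that rose on HFD in AIM-KO livers at both durations. Ebp (chrX:8193513-8193762, minus strand) and Tm7sf2 (chr19:6067851-6068100, minus strand) are enzymes that fell in some comparisons. The last line holds the 109 bases between the facing starts of Abcg5 and Abcg8 (chr17:84683012-84683120, plus strand), which share this stretch.
Hmgcs1: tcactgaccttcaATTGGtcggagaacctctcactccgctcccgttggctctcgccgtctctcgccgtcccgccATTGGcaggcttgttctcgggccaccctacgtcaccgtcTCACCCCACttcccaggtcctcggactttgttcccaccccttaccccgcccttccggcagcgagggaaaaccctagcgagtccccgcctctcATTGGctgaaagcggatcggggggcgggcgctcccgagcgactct
Mvd: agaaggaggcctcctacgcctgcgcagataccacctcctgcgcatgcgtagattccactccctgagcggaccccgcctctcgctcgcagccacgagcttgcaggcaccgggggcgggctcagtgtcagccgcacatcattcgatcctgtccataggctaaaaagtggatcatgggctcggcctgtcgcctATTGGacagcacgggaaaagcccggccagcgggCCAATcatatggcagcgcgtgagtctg
Hsd17b7: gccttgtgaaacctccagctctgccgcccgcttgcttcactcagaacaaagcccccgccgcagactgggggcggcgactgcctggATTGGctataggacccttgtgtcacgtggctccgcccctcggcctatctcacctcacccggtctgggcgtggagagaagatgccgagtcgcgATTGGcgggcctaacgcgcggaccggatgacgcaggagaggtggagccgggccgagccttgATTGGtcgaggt
Ebp: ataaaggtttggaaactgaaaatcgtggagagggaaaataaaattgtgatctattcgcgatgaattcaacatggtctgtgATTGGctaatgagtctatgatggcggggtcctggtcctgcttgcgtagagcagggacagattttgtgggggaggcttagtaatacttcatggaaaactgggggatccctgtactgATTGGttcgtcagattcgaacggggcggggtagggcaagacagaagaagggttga
Tm7sf2: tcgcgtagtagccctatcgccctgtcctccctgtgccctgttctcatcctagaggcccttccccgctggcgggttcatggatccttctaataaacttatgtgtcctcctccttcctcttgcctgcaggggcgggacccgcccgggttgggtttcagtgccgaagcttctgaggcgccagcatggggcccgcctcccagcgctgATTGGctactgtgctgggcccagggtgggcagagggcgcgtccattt
Abcg5 and Abcg8 facing starts: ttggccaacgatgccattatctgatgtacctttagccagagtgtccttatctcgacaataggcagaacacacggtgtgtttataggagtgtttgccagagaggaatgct

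Windows were found for 22 of the 28 genes, some with several starts. At least 1 window held CCAAT in 18 of the 22 genes, against 37.5% of all 27025 genes with such windows. The core TCACNCCAC was found in Hmgcs1 alone, at position -137 from the start, against 1.22% of all genes. The E-box CACGTG was found in Dhcr7, Hsd17b7, Insig1, Sc5d and Scap, against 6.86% of all genes. Both strands were searched and any overlap between motifs was allowed. The rising Hmgcs1 and Mvd and the falling Ebp and Tm7sf2 all held CCAAT, so this letter match did not separate the directions. The 109 bases between Abcg5 and Abcg8 held none of the 3 motifs and had 45.9% G and C. The full window of 250 bases before that Abcg8 start held CCAAT at -175 and -114, the second directly beside this stretch. The window of 250 bases before the Abcg5 start held none of the motifs. A match is a run of letters and does not show that a factor binds.

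Several arrays stood apart in ways that touch these genes. Cd5l read 4.0 to 23.5 on the 9 AIM-KO arrays and 702.6 to 1926.8 on the 9 WT arrays. Xist, the transcript of the inactive X chromosome, read 2921.6 to 3049.7 on all 3 AIM-KO 20-week arrays and on WT 20-week replicate 2, and 7.8 to 26.2 on the other 14 arrays. Y-linked genes went the opposite way, at most 9.9 on the Xist-high arrays and at least 71.8 on the others. Xist and the Y-linked genes mark the sex of the animal, which the labels do not give. In AIM-KO livers the 20-week diet and this Xist status therefore cannot be told apart. WT chow replicate 1 read highest of its group for 17 of 17 synthesis enzymes, where 32.9% of all genes had their highest value on that array. Its level was a median of 1.65 times the mean of the other 2 WT chow arrays over the enzymes, and 0.975 times over all genes. AIM-KO 20-week replicate 1 read highest of its group for 16 of 17 enzymes, against 30.3% of all genes. AIM-KO 12-week replicate 1 did so for 12 of 17, against 35.0% of all genes, and WT 12-week replicate 1 for 13 of 17, against 33.8%, so the highest array was numbered 1 in 4 of the 6 groups. Array medians were 15 to 21.1, and correlations between arrays were 0.955 to 0.980 within groups and 0.938 to 0.977 between groups.

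In AIM-KO livers 5 of the 17 synthesis enzymes rose and 2 fell at 12 weeks of HFD, and 7 rose and none fell at 20 weeks. A gene counts as risen or fallen when limma's p, adjusted by the Benjamini-Hochberg method over all genes tested, was under 0.05. Over all 25 genes 6 rose and 6 fell in AIM-KO livers at 12 weeks, where 18.1% of all genes were called (11.4% higher and 6.78% lower). At 20 weeks 8 of the 25 rose and none fell in AIM-KO livers, where 6.96% of all genes were called (4.29% higher and 2.67% lower). None of the 25 was called there with Xist status as a term, which rests on WT 20-week replicate 2 alone. How many of all genes were called in that fit is not given here. In WT livers 2 rose and 1 fell at 12 weeks, where 5.14% of all genes were called (3.52% higher and 1.63% lower), and without WT chow replicate 1 the counts were 8 and 0. In WT livers at 20 weeks 1 rose and 3 fell, where 14.5% of all genes were called (8.72% higher and 5.77% lower), and without WT chow replicate 1 the counts were 6 and 1. Between AIM-KO and WT livers a single gene of the 25 passed the test, Ebp at 20 weeks.

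Changes are given as log2 change ± standard error between 3 and 3 arrays, HFD minus chow or AIM-KO minus WT. The median log2 change over the 25 genes in AIM-KO livers was 0.21 at 12 weeks, against 0.04 over all genes, and 0.61 at 20 weeks, against 0.04. In WT livers it was 0.24 at 12 weeks, against 0.00 over all genes, and 0.05 at 20 weeks, against -0.01. The 17 synthesis enzymes alone had medians of 0.47 and 0.79 in AIM-KO livers at 12 and 20 weeks, and of 0.31 and 0.26 in WT livers. Each genotype's chow arrays serve as the baseline of both durations, so the 12-week and 20-week changes share those arrays.

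**Figure D1:**
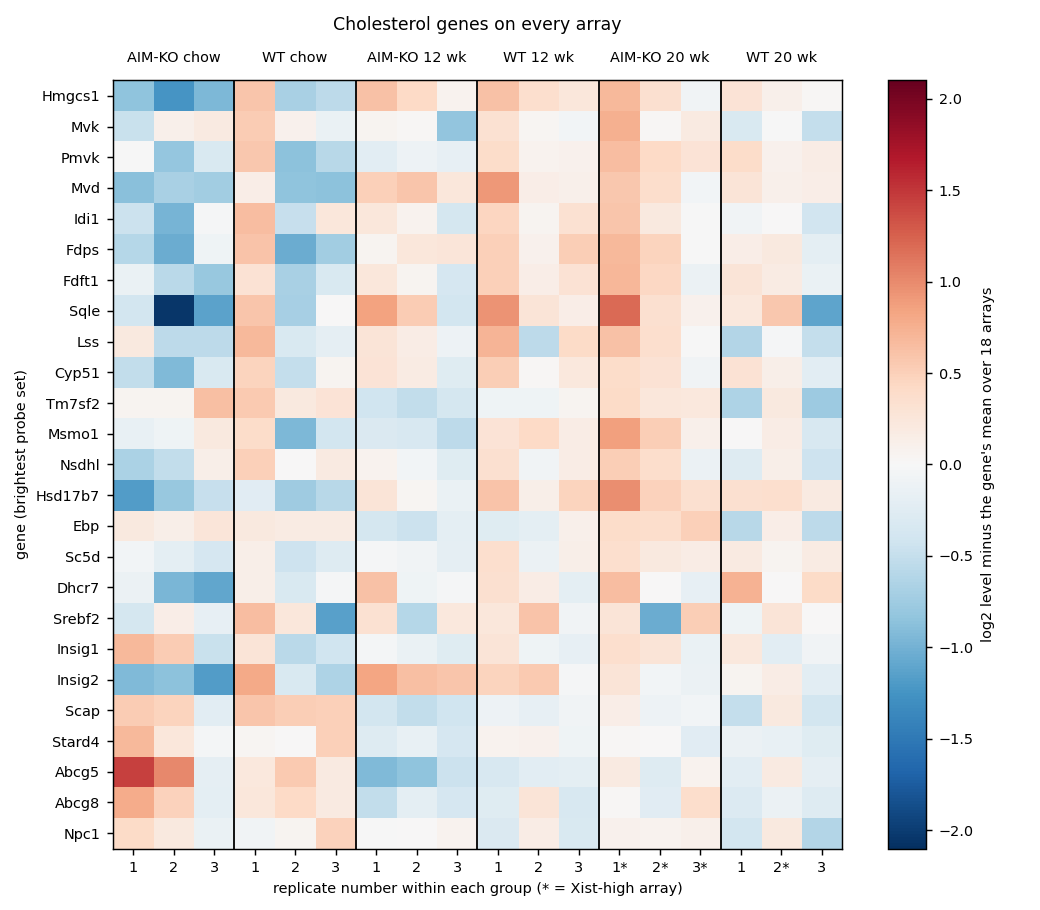
Each cell is the log2 level of a gene (rows, by pathway order) on an array (columns, replicates within group) minus the gene's mean over the 18 arrays; red is higher, blue lower, and stars mark Xist-high arrays. WT chow replicate 1 is redder than the other WT chow arrays for all 17 enzymes from Hmgcs1 to Dhcr7, and Abcg5 on AIM-KO chow replicate 1 is the highest cell of its row.

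**Figure D2:**
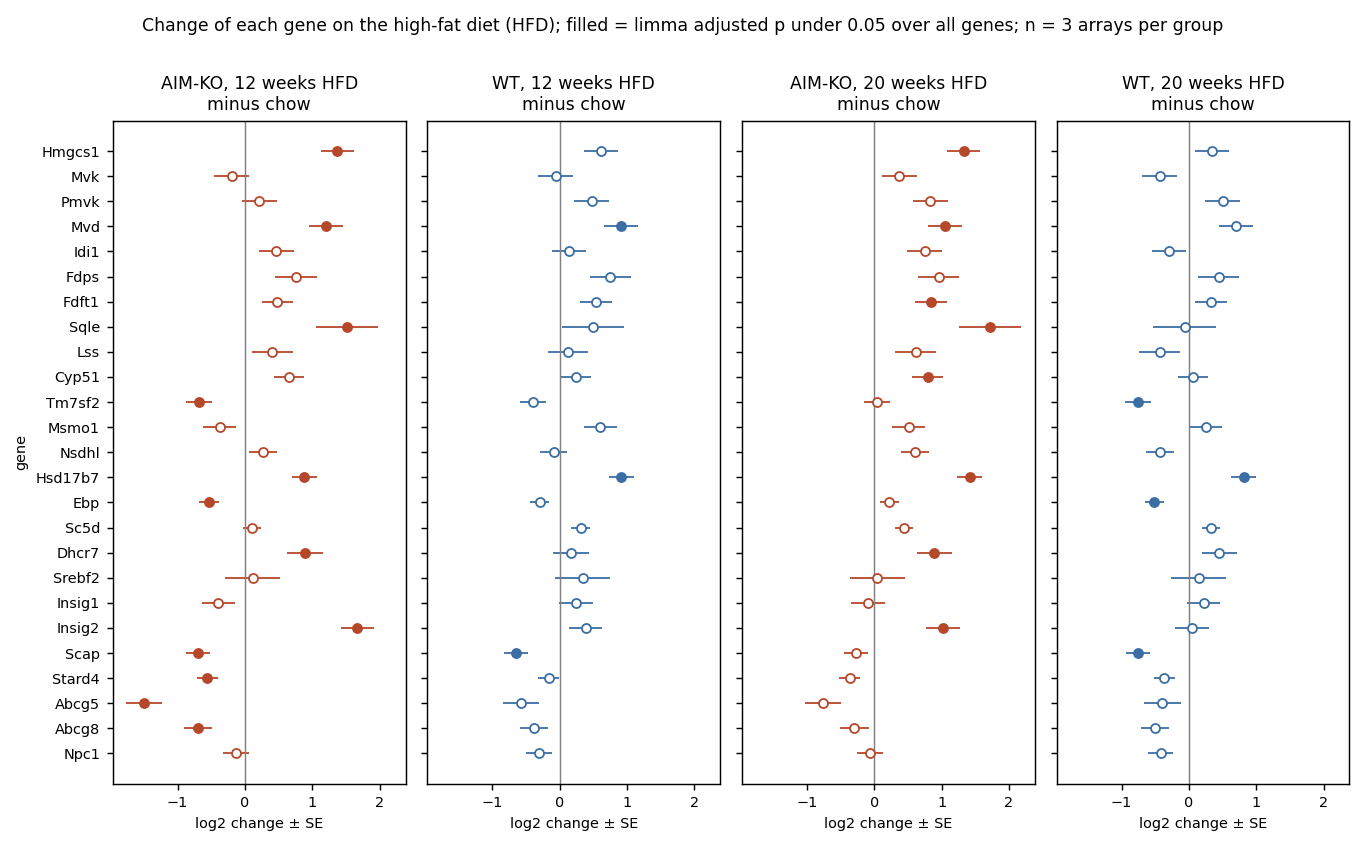
Points are log2 changes on HFD minus chow with standard error bars for the 25 genes in AIM-KO and WT livers at 12 and 20 weeks (n = 3 arrays per group); filled points passed limma's adjusted p of 0.05. In AIM-KO livers at 20 weeks all 17 enzymes lie right of 0, and in WT livers at 20 weeks 10 of the 17 do.

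The entry enzyme Hmgcs1 joins acetyl units into the precursor of mevalonate. Hmgcs1 on AIM-KO arrays read 1980.1, 1505 and 1843 intensity units on chow, 5426, 4739.7 and 3726 at 12 weeks, and 5719.6, 4505 and 3379 at 20 weeks. Hmgcs1 on WT arrays read 5357, 2222 and 2442 on chow, 5422, 4537 and 4206 at 12 weeks, and 4356, 3820.0 and 3608 at 20 weeks. In AIM-KO livers every HFD array was above every chow array, while in WT livers chow replicate 1 lay among the 12-week arrays and above the 20-week arrays. The log2 change in AIM-KO livers was 1.37 ± 0.25 at 12 weeks (limma adjusted p = 0.000896) and 1.33 ± 0.25 at 20 weeks (adjusted p = 0.00296). In WT livers it was 0.61 ± 0.25 (adjusted p = 0.177) and 0.35 ± 0.25 (adjusted p = 0.409), neither past the test.

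Mvd removes carbon dioxide from a mevalonate phosphate to give the first isoprenoid unit. Mvd on AIM-KO arrays read 36.9, 43.2 and 41.5 on chow, 102, 108 and 84.0 at 12 weeks, and 107, 92.5 and 68.0 at 20 weeks. Mvd on WT arrays read 78.1, 38.1 and 37.4 on chow, 136, 78.4 and 76.5 at 12 weeks, and 86.3, 76.8 and 78.1 at 20 weeks. The AIM-KO HFD arrays were all above the AIM-KO chow arrays, and again WT chow replicate 1 overlapped the WT HFD arrays. Mvd rose by 1.20 ± 0.25 at 12 weeks (limma adjusted p = 0.00252) and by 1.06 ± 0.25 at 20 weeks (adjusted p = 0.0148) in AIM-KO livers. In WT livers it rose by 0.91 ± 0.25 at 12 weeks (adjusted p = 0.0418) and read 0.70 ± 0.25 higher at 20 weeks (adjusted p = 0.0715).

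The kinases Mvk and Pmvk, which phosphorylate mevalonate, and the enzymes Idi1 and Fdps, which isomerise and join the isoprenoid units, passed the test in no comparison. Their largest change in AIM-KO livers was that of Fdps at 20 weeks, with 1792, 1539.5 and 1110.2 on the HFD arrays, against 732, 541 and 1046 on chow. These groups did not overlap, and the log2 change of Fdps was 0.96 ± 0.31 (limma adjusted p = 0.0704). Pmvk read 335 to 431 in AIM-KO livers at 20 weeks and 155 to 272 on chow, with a change of 0.83 ± 0.26 (adjusted p = 0.0638). Idi1 read 1214 to 1836 in AIM-KO livers at 20 weeks and 616 to 1195 on chow, also without overlap, with a change of 0.75 ± 0.26 (adjusted p = 0.0905). The dim Mvk, at 34.9 to 109 over all 18 arrays, changed by 0.37 ± 0.26 in the same comparison (adjusted p = 0.476).

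Fdft1, Sqle and Lss form squalene, oxidise it and close it into lanosterol. Sqle on AIM-KO arrays read 159, 48.2 and 94.5 on chow, 377, 303 and 160.1 at 12 weeks, and 481, 266 and 224 at 20 weeks. Sqle on WT arrays read 315, 128 and 209.7 on chow, 407, 253 and 232 at 12 weeks, and 246, 313 and 95.6 at 20 weeks. The AIM-KO HFD arrays lay above the AIM-KO chow arrays, by less than 1 intensity unit at the nearest values at 12 weeks, and the WT groups overlapped. Sqle rose by 1.51 ± 0.46 at 12 weeks (limma adjusted p = 0.0282) and by 1.73 ± 0.46 at 20 weeks (adjusted p = 0.0291) in AIM-KO livers. Its WT changes were 0.49 ± 0.46 and -0.06 ± 0.46, and its standard error was the widest among the 25 genes.

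Fdft1 on AIM-KO arrays read 1249, 924 and 795 on chow, 1632, 1425 and 1079 at 12 weeks, and 2226, 1869.7 and 1271 at 20 weeks. Fdft1 on WT arrays read 1695, 861 and 1106 on chow, 1944, 1512 and 1699.6 at 12 weeks, and 1666, 1548 and 1243 at 20 weeks. The AIM-KO 20-week arrays lay above the AIM-KO chow arrays, by a narrow margin, and the WT groups overlapped. Fdft1 rose by 0.84 ± 0.24 at 20 weeks in AIM-KO livers (limma adjusted p = 0.0377), and its change of 0.48 ± 0.24 at 12 weeks did not pass the test (adjusted p = 0.183). Lss passed no test and read 257 to 399 in AIM-KO livers at 20 weeks, 169 to 255 in WT livers at 20 weeks, and 176 to 299.6 in AIM-KO livers on chow.

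After lanosterol, 8 enzymes of the list remove methyl groups and rearrange double bonds. Cyp51, the lanosterol demethylase, on AIM-KO arrays read 384, 288 and 443 on chow, 672, 621 and 461 at 12 weeks, and 725, 679 and 522 at 20 weeks. Cyp51 on WT arrays read 768, 388 and 572 on chow, 790.1, 561 and 641 at 12 weeks, and 682, 604 and 472 at 20 weeks. The AIM-KO HFD arrays at both durations lay above the AIM-KO chow arrays, and the WT groups overlapped. Cyp51 rose by 0.79 ± 0.23 at 20 weeks in AIM-KO livers (limma adjusted p = 0.0403), and its change of 0.65 ± 0.23 at 12 weeks fell short (adjusted p = 0.0518).

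Hsd17b7 reduces a keto group during demethylation, and it is the gene called in all 4 comparisons of HFD with chow. Hsd17b7 on AIM-KO arrays read 245, 316 and 394 on chow, 668, 574 and 504 at 12 weeks, and 1093, 773 and 702 at 20 weeks. Hsd17b7 on WT arrays read 470.4, 329.9 and 368 on chow, 846, 601 and 764 at 12 weeks, and 700.4, 707 and 633 at 20 weeks. No HFD array overlapped a chow array of its genotype. In AIM-KO livers Hsd17b7 rose by 0.88 ± 0.19 at 12 weeks (limma adjusted p = 0.003) and by 1.42 ± 0.19 at 20 weeks (adjusted p = 0.000127). In WT livers it rose by 0.92 ± 0.19 at 12 weeks (adjusted p = 0.00671) and by 0.81 ± 0.19 at 20 weeks (adjusted p = 0.00677). This is the brightest of 4 probe sets of the gene and one whose probes can match other transcripts, as are those used for Hmgcs1 and Fdft1. The other 3 probe sets of Hsd17b7 gave smaller changes of the same sign. In AIM-KO livers they read 0.16 to 0.37 at 12 weeks and 0.73 to 0.88 at 20 weeks, and in WT livers 0.02 to 0.60 at 12 weeks and 0.08 to 0.28 at 20 weeks. With the mean of its probe sets Hsd17b7 kept its call at 20 weeks in AIM-KO livers alone (0.96, limma adjusted p = 0.00922). The other values were then 0.40 in AIM-KO livers at 12 weeks, and 0.48 and 0.34 in WT livers at 12 and 20 weeks (adjusted p = 0.23, 0.216 and 0.327).

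Dhcr7 carries out the last reduction to cholesterol. Dhcr7 on AIM-KO arrays read 257, 143 and 130.4 on chow, 431, 266 and 278 at 12 weeks, and 445, 284 and 249.7 at 20 weeks. Dhcr7 on WT arrays read 307, 224 and 278 on chow, 355, 313 and 245 at 12 weeks, and 468, 283 and 373 at 20 weeks. The AIM-KO 12-week arrays lay above the AIM-KO chow arrays, the AIM-KO 20-week arrays overlapped them, and the WT groups overlapped. In AIM-KO livers Dhcr7 rose by 0.89 ± 0.26 at 12 weeks (limma adjusted p = 0.0239) and by 0.89 ± 0.26 at 20 weeks (adjusted p = 0.0488).

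Ebp, the sterol isomerase, and Tm7sf2, a sterol reductase of the same stretch of the pathway, fell at 12 weeks in AIM-KO livers, where Hmgcs1, Mvd, Sqle, Hsd17b7 and Dhcr7 rose. Ebp on AIM-KO arrays read 2812, 2664 and 2929.5 on chow, 1899, 1787 and 2123 at 12 weeks, and 3206, 3152 and 3464 at 20 weeks. Ebp on WT arrays read 2816, 2747 and 2763 on chow, 2059.9, 2119.6 and 2636 at 12 weeks, and 1631, 2682 and 1677 at 20 weeks. Both genotypes at 12 weeks lay below their chow arrays, and at 20 weeks the AIM-KO arrays were above chow and the WT arrays below it. Ebp fell by 0.53 ± 0.15 on the log2 scale at 12 weeks in AIM-KO livers (limma adjusted p = 0.0146) and by 0.51 ± 0.15 at 20 weeks in WT livers (adjusted p = 0.0227). Its change in AIM-KO livers at 20 weeks was 0.22 ± 0.15 (adjusted p = 0.429).

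Tm7sf2 on AIM-KO arrays read 855.1, 855.4 and 1279.9 on chow, 617, 574 and 639 at 12 weeks, and 1092, 978 and 960.3 at 20 weeks. Tm7sf2 on WT arrays read 1213, 957 and 1014 on chow, 776, 774 and 861 at 12 weeks, and 524, 948 and 488 at 20 weeks. It lay below chow without overlap at 12 weeks in both genotypes and at 20 weeks in WT livers, and overlapped chow at 20 weeks in AIM-KO livers. Tm7sf2 fell by 0.68 ± 0.19 at 12 weeks in AIM-KO livers (limma adjusted p = 0.0193) and by 0.76 ± 0.19 at 20 weeks in WT livers (adjusted p = 0.0125). In AIM-KO livers at 20 weeks its change was 0.04 ± 0.19 (adjusted p = 0.941). The WT 20-week calls of Ebp and Tm7sf2 were lost with the actin 3′ to 5′ ratio as a term in the fit. That ratio, a measure of RNA quality, was 3.64 and 4.22 on WT 20-week replicates 1 and 3. On WT chow arrays it was 2.53 to 2.75.

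Msmo1, Nsdhl and Sc5d, the methyl oxidase, the decarboxylating dehydrogenase and the sterol desaturase, passed the test in no comparison. Msmo1 read 719 to 854 in AIM-KO livers at 12 weeks, below the 941 to 1212 on AIM-KO chow arrays, and 1132 to 1912 at 20 weeks. Nsdhl read 476 to 745 in AIM-KO livers at 20 weeks and 328 to 566 on AIM-KO chow arrays, a change of 0.61 ± 0.21 (limma adjusted p = 0.0885). Sc5d was 4133 to 4700.2 in AIM-KO livers at 20 weeks, above the 2885 to 3571 on AIM-KO chow arrays, a change of 0.44 ± 0.13 (adjusted p = 0.0576).

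**Figure D3:**
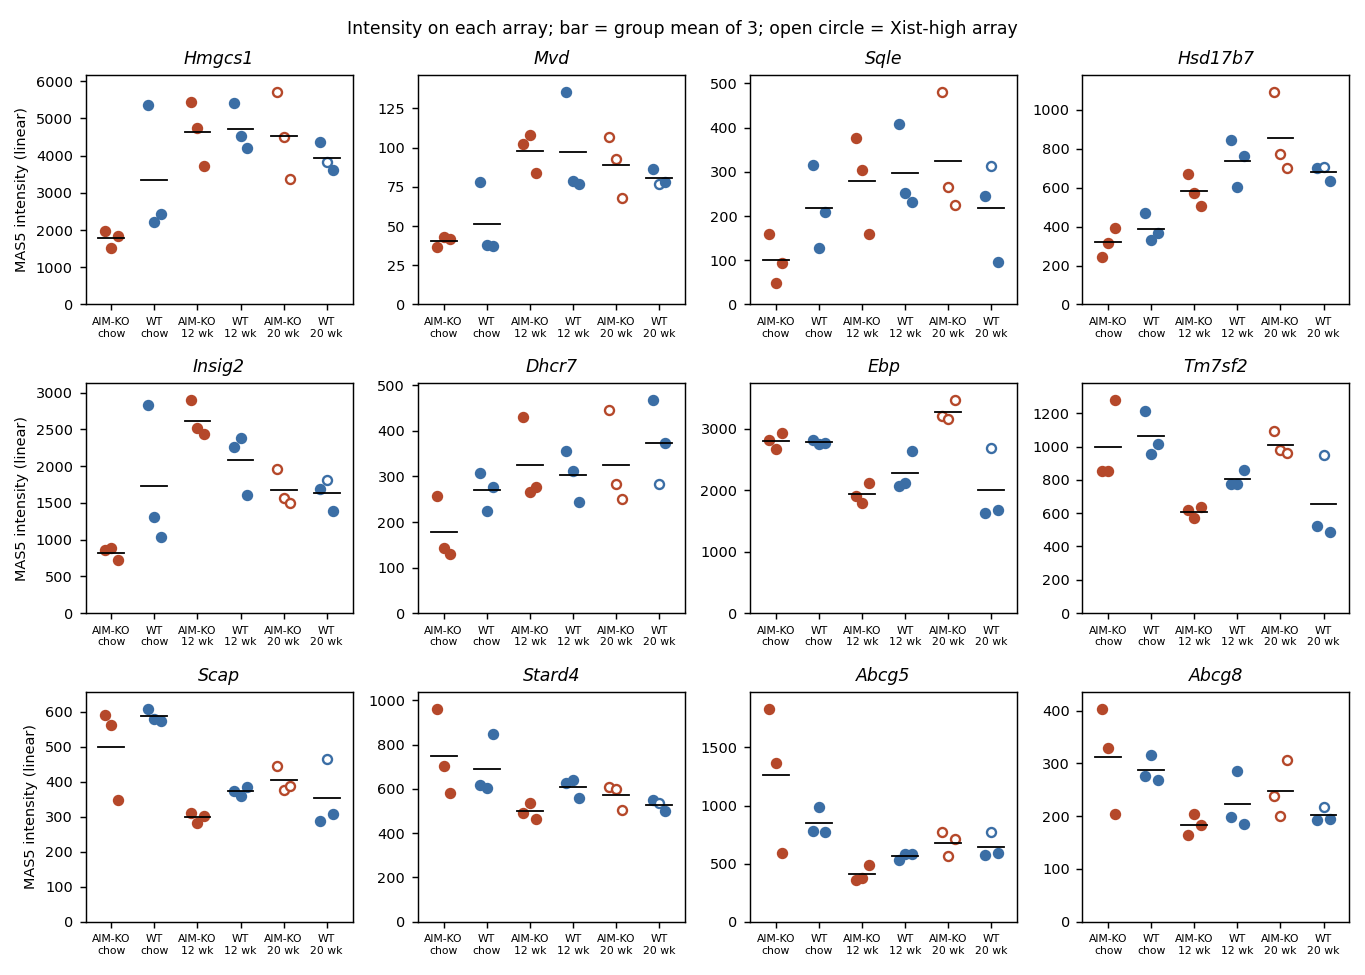
Points are the intensity on each array for 12 genes called in at least 1 comparison, by group, with the mean of 3 as a bar; orange is AIM-KO, blue is WT and open circles are Xist-high arrays. Hmgcs1 in AIM-KO livers lies at 1505 to 1980.1 on chow and at 3379 or above on every HFD array, while Abcg5 in AIM-KO livers is lowest at 12 weeks.

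Among the regulators, Insig2 encodes a protein that holds SCAP and SREBP in the endoplasmic reticulum. Insig2 on AIM-KO arrays read 854, 889.5 and 722 on chow, 2898, 2512 and 2443 at 12 weeks, and 1955, 1569 and 1496 at 20 weeks. Insig2 on WT arrays read 2833, 1305 and 1040.5 on chow, 2257, 2384 and 1599.5 at 12 weeks, and 1687, 1808 and 1390.1 at 20 weeks. The AIM-KO groups were wholly separate from each other, and WT chow replicate 1 lay above all WT HFD arrays. In AIM-KO livers Insig2 rose by 1.67 ± 0.25 at 12 weeks (limma adjusted p = 0.000167) and by 1.02 ± 0.25 at 20 weeks (adjusted p = 0.0179). In WT livers its changes were 0.39 ± 0.25 at 12 weeks and 0.05 ± 0.25 at 20 weeks (adjusted p = 0.441 and 0.937).

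Scap, the SREBP escort, fell in 3 of the 4 comparisons of HFD with chow. Scap on AIM-KO arrays read 591, 563 and 347 on chow, 309.8, 283 and 302 at 12 weeks, and 446, 378 and 389 at 20 weeks. Scap on WT arrays read 609.6, 581 and 573 on chow, 375, 359.5 and 386 at 12 weeks, and 287, 466 and 308 at 20 weeks. The WT chow arrays were above all WT HFD arrays, and among AIM-KO arrays only the 12-week group was clear of chow. Scap fell by 0.70 ± 0.18 at 12 weeks in AIM-KO livers (limma adjusted p = 0.00899), by 0.65 ± 0.18 at 12 weeks in WT livers (adjusted p = 0.0379) and by 0.76 ± 0.18 at 20 weeks in WT livers (adjusted p = 0.00686). Another, dim probe set of Scap (mean 10.4) read 0.99 higher at 12 weeks in AIM-KO livers.

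Srebf2, which encodes SREBP-2, read 18.1 to 71.4 over all 18 arrays and passed the test in no comparison. Its changes on HFD were 0.05 to 0.34, each with a standard error of 0.41, so changes of this size were not detectable with these arrays. Another probe set of Srebf2 (mean 34.8, against 46.7 for the one used) gave 0.51 and 0.71 in AIM-KO livers at 12 and 20 weeks, where the one used gave 0.11 and 0.05. Insig1, the second INSIG gene and itself a known SREBP target, read 1776 to 3949.5 on AIM-KO chow arrays, 2054 to 2387 at 12 weeks and 2228 to 3139.5 at 20 weeks. Its AIM-KO changes were -0.40 ± 0.25 at 12 weeks (limma adjusted p = 0.321) and -0.09 ± 0.25 at 20 weeks (adjusted p = 0.899), beside rises of several enzymes.

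The handling genes read lower on HFD than on chow in both genotypes, and 3 of the 4 fell at 12 weeks in AIM-KO livers. Abcg5 on AIM-KO arrays read 1835, 1365 and 594 on chow, 356, 375 and 490.4 at 12 weeks, and 771, 561 and 707 at 20 weeks. Abcg5 on WT arrays read 784, 986 and 771 on chow, 535, 581 and 582 at 12 weeks, and 577, 774 and 589 at 20 weeks. The AIM-KO chow arrays were far apart from each other, yet all were above the AIM-KO 12-week arrays. Abcg5 fell by 1.50 ± 0.27 at 12 weeks in AIM-KO livers (limma adjusted p = 0.000784), while its change of -0.76 ± 0.27 at 20 weeks did not pass (adjusted p = 0.104). In WT livers the changes were -0.57 ± 0.27 and -0.39 ± 0.27 (adjusted p = 0.252 and 0.383).

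Abcg8, whose protein pairs with ABCG5, on AIM-KO arrays read 404, 329 and 203 on chow, 164, 205 and 183 at 12 weeks, and 238, 199 and 306 at 20 weeks. Abcg8 on WT arrays read 277, 316 and 269 on chow, 198, 286 and 185 at 12 weeks, and 193, 217 and 195 at 20 weeks. The AIM-KO 12-week and chow arrays overlapped by about 1 unit, and Abcg8 fell by 0.70 ± 0.21 in that comparison (limma adjusted p = 0.0256). The partners, which start 109 bases apart as shown above, were both highest on AIM-KO chow replicate 1.

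Stard4, a sterol carrier of the cytosol, on AIM-KO arrays read 963, 705 and 582 on chow, 493, 538 and 465 at 12 weeks, and 609, 599.8 and 504 at 20 weeks. Stard4 on WT arrays read 616, 602 and 846 on chow, 628, 639 and 558 at 12 weeks, and 548, 536 and 498 at 20 weeks. It lay below chow without overlap at 12 weeks in AIM-KO livers and fell by 0.56 ± 0.16 (limma adjusted p = 0.0175). In WT livers at 20 weeks the groups did not overlap either, and the change of -0.36 ± 0.16 did not pass (adjusted p = 0.131). Npc1, which exports cholesterol from lysosomes, passed no test, and it read 512 to 523 in AIM-KO livers at 20 weeks, 314 to 557 in WT livers at 20 weeks and 441 to 640.3 on AIM-KO chow arrays.

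Markers of cell types moved with the 12-week change in AIM-KO livers. Of 8 hepatocyte markers 7 fell there, with summed levels of 42566 to 46338 at 12 weeks and 62743 to 65856 on AIM-KO chow arrays. Recruited macrophage markers rose for 5 of 6, with sums of 885 to 1327 at 12 weeks and 242 to 322 on chow. Kupffer cell and macrophage markers rose for 4 of 8 (3814 to 4875 at 12 weeks, 2378 to 2808 on chow). Stellate cell markers rose for 5 of 6 (2767 to 3310.2 at 12 weeks, 1367 to 1579.9 on chow). The Kupffer cell and macrophage list holds general macrophage genes, among them Adgre1, Cd68, Csf1r and C1qa, so its rise cannot be assigned to Kupffer cells. The Kupffer markers Timd4 (14.4 to 19 at 12 weeks, 35.6 to 39.5 on chow) and Marco (22.5 to 35.1, against 28 to 78.3) read lower, neither called. Of all genes 11.4% rose and 6.78% fell there, and the shares for the other comparisons with chow are those given above. At 20 weeks in AIM-KO livers no marker of the hepatocyte, Kupffer cell and macrophage, or recruited macrophage lists passed the test. There 4 of 6 stellate markers rose, and hepatocyte sums were 49869.8 to 58357. In WT livers at 20 weeks 2 of 8 hepatocyte markers fell. There 5 of 6 recruited macrophage, 4 of 8 Kupffer cell and macrophage, and 5 of 6 stellate markers rose. At 12 weeks in WT livers 1 hepatocyte marker fell and 2 recruited macrophage and 3 stellate markers rose. Of 5 endothelial markers 1 rose in AIM-KO livers at 12 weeks and 1 in WT livers at each duration, and of 2 red cell markers tested 1 fell in AIM-KO livers at each duration and in WT livers at 20 weeks. Some markers of the first 4 lists were dim, below the array medians given above. Group means were as low as 2.5 for Trem2 in WT livers at 20 weeks, 5.3 for Gpnmb on AIM-KO chow arrays and 9.0 for Col1a1 on WT chow arrays. No bile duct or lymphocyte marker tested passed in any comparison. In whole liver fewer cells of a type and less RNA per cell cannot be told apart, and the part of cell makeup in the changes above was not tested.

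AIM-KO and WT livers on chow differed in none of the 25 genes after adjustment, where 0.0272% of all genes were called (0.00681% higher and 0.0204% lower). The 25 genes had a median of -0.21, against -0.03 over all genes, and 7 of them had an unadjusted p under 0.05, against 7.24% of all genes. AIM-KO arrays lay wholly below WT arrays for Hmgcs1 and Insig2, and above for none, where 6.63% of all genes lay below and 4.86% above. Hmgcs1 differed by -0.80 ± 0.25 (limma adjusted p = 0.452) and Insig2 by -0.93 ± 0.25 (adjusted p = 0.328). Without WT chow replicate 1 those differences were -0.40 and -0.51, and the median over the 25 genes was -0.01.

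At 12 weeks none of the 25 genes differed between AIM-KO and WT livers after adjustment, where 0.0749% of all genes were called (0.0408% higher and 0.034% lower), and 1 of them, Msmo1, had an unadjusted p under 0.05, against 8.38% of all genes. Msmo1 read 854, 838 and 719 in AIM-KO livers, against 1291, 1415 and 1171 in WT livers, a difference of -0.68 ± 0.24 (limma adjusted p = 0.39). The arrays did not overlap, AIM-KO being lower, for Msmo1, Pmvk, Tm7sf2, Scap, Stard4 and Abcg5, which is 6 of 25 against 7.5% of all genes. AIM-KO was higher without overlap for Insig2 alone, against 8.5% of all genes.

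At 20 weeks Ebp was higher in AIM-KO livers, by 0.75 ± 0.15 (limma adjusted p = 0.0415), where 0.157% of all genes were called (0.0272% higher and 0.129% lower). Ebp lies on the X chromosome. All AIM-KO arrays in this comparison were Xist-high, and of the WT arrays only replicate 2 was, so genotype and Xist status overlap here. Ebp read 3206, 3152 and 3464 in AIM-KO livers, against 1631, 2682 and 1677 in WT livers. The groups did not overlap, and WT replicate 2 lay well above the other WT arrays. Of the markers, 1 of 6 for recruited macrophages, 1 of 6 for stellate cells and 1 of 5 for endothelium were lower in AIM-KO livers, with recruited macrophage sums of 323 to 463 in AIM-KO livers and 708 to 1249 in WT livers, and their part in the difference of Ebp was not tested. Tm7sf2, Lss and Mvk also read higher on every AIM-KO array than on any WT array, which makes 4 of 25 genes, against 6.98% of all genes, while none read lower, against 8.76%. Tm7sf2 differed by 0.69 ± 0.19 (adjusted p = 0.117), Lss by 0.69 ± 0.30 (adjusted p = 0.319) and Mvk by 0.59 ± 0.26 (adjusted p = 0.327). The nearest AIM-KO and WT values were close for Lss (256.6 and 254.6) and Mvk (65.1 and 63.9). Another, dim probe set of Mvk (mean 17.9) differed by -0.57, and the other probe sets of Lss by 0.41 and 0.31.

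WT 20-week replicate 2, the Xist-high array of its group, read closer to the AIM-KO arrays for several of these genes. Its actin 3′ to 5′ signal ratio, a measure of RNA quality, was 2.54, against 3.64 and 4.22 on the other WT 20-week arrays and 2.35, 2.55 and 2.61 on the AIM-KO 20-week arrays. Tm7sf2 read 948 on that array and 524 and 488 on the other WT arrays, Npc1 557 against 371 and 314, and Scap 466 against 287 and 308. In WT livers at 20 weeks Xist status and the actin ratio move together and cannot be told apart. Without that array Ebp was higher in AIM-KO livers by 0.98 (limma adjusted p = 5.78e-05) and Tm7sf2 by 0.99 (adjusted p = 0.000948), and 948 genes were called. In that fit every AIM-KO 20-week array was Xist-high and no remaining WT 20-week array was. Genotype, Xist status and actin ratio therefore cannot be told apart in it. With Xist status as a term in the fit, Ebp differed by 0.29 and no gene of the list was called, the term resting on WT 20-week replicate 2 alone. With the actin ratio as a term Ebp was likewise not called.

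**Figure D4:**
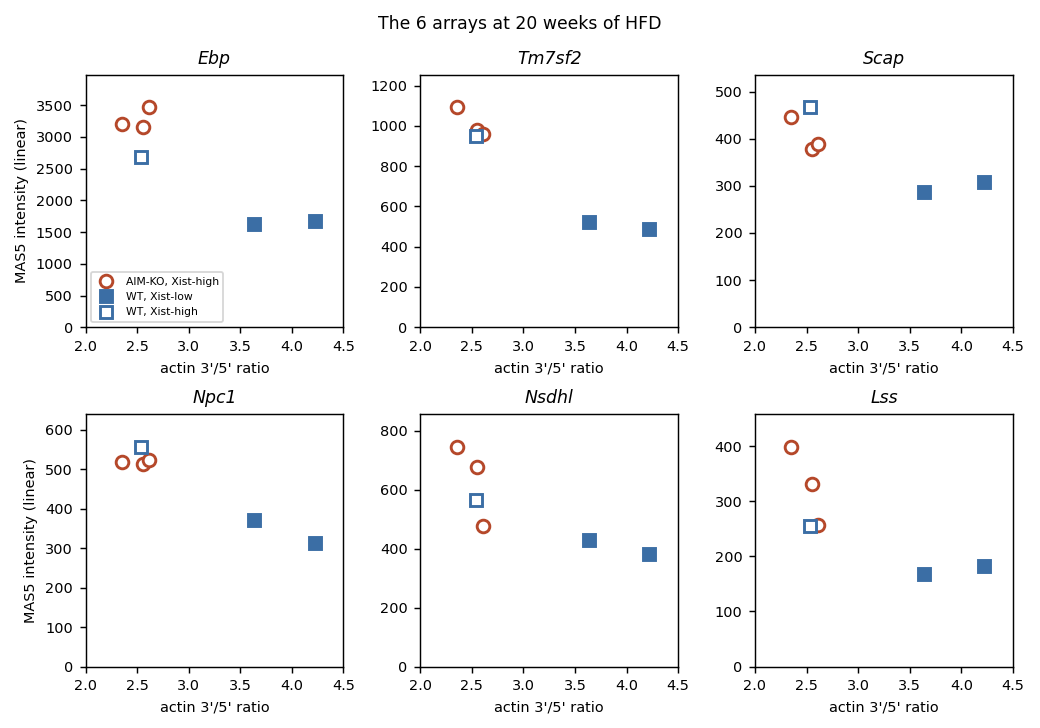
Intensity of 6 genes (vertical) against the actin 3′ to 5′ ratio (horizontal) on the 6 arrays at 20 weeks of HFD; orange circles are AIM-KO, blue squares WT, and open symbols Xist-high arrays. For Ebp, Tm7sf2, Scap and Npc1 the open WT square, at a ratio of 2.54, lies well above the filled WT squares at 3.64 and 4.22.

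The change on HFD was compared between the genotypes as a difference of differences, AIM-KO minus WT. None of the 25 genes passed in either case, where 1 of all genes passed at 12 weeks (0.00681%) and none at 20 weeks (0.0%). At 20 weeks the difference was positive for all 17 enzymes, where 53.1% of all genes were positive, with a median of 0.73 over the enzymes and 0.03 over all genes. The estimates share the same 12 arrays, and 11 of the 25 genes had an unadjusted p under 0.05, against 10.2% of all genes. The widest was Sqle with 1.79 ± 0.65 (limma adjusted p = 0.371), and Ebp with 0.74 ± 0.21 had the smallest adjusted p (0.256). At 12 weeks the difference was 1.28 ± 0.35 for Insig2 (adjusted p = 0.312), -0.98 ± 0.34 for Msmo1 (adjusted p = 0.374) and -0.93 ± 0.38 for Abcg5 (adjusted p = 0.457). Without WT 20-week replicate 2, 3 genes passed at 20 weeks: Ebp with 0.97 (adjusted p = 0.00332), Tm7sf2 with 1.10 (adjusted p = 0.0102) and Nsdhl with 1.19 (adjusted p = 0.0425). Of these, Ebp and Nsdhl lie on the X chromosome. In this fit, too, genotype, Xist status and actin ratio at 20 weeks cannot be told apart. Leaving out that array also raised the number of all genes called between AIM-KO and WT livers at 20 weeks, as given above. How many of all genes passed in the fit of the difference is not given here, so these 3 have no share beside them. Without WT chow replicate 1 none passed, and the median over the 25 genes at 20 weeks was 0.46, against 0.51 with it.

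The number of WT genes that rose on HFD depended on WT chow replicate 1. That array was 2.79 times the mean of the other 2 WT chow arrays for Fdps, 2.46 times for Pmvk, 2.42 times for Insig2 and 2.30 times for Hmgcs1. It was 1.02 times that mean for Ebp, 0.892 times for Abcg5 and 0.78 times for Npc1. Without it 8 genes rose and none fell in WT livers at 12 weeks, against 2 and 1 with it. These 8 were Hmgcs1 (1.01), Pmvk (0.91), Mvd (1.24), Fdps (1.25), Msmo1 (0.96), Hsd17b7 (1.06), Sc5d (0.47) and Insig2 (0.81). Scap at 12 weeks in WT livers changed by -0.62 without it, against -0.65 with it. That call was lost when any 1 of the 6 arrays compared was left out, with changes of -0.67 to -0.62. At 20 weeks without it 6 genes rose, Hmgcs1 (0.75), Pmvk (0.93), Mvd (1.03), Fdps (0.94), Hsd17b7 (0.96) and Sc5d (0.49), and Scap fell by 0.73. Ebp (-0.50, limma adjusted p = 0.0555) and Tm7sf2 (-0.66, adjusted p = 0.0538) were then not called, against -0.51 and -0.76 with it. The call of Ebp was kept in 1 of the 6 fits that left out an array and that of Tm7sf2 in 3 of 6. The fit without it calls 689 genes in all at 12 weeks and 1882 at 20 weeks, against 756 and 2129 with it.

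The arrays of HFD and chow did not overlap, in WT livers, for 1 gene higher and 4 lower at 12 weeks, against 12.6% and 11.3% of all genes, and for 1 higher and 5 lower at 20 weeks, against 15.4% and 13.7%. Hsd17b7 was the higher one both times, and Ebp, Tm7sf2 and Scap were among the lower ones both times. In AIM-KO livers 8 genes were higher and 6 lower without overlap at 12 weeks, against 20.4% and 14.4% of all genes. At 20 weeks 12 were higher and none lower, against 13.5% and 10.4%. The 12 were Hmgcs1, Pmvk, Mvd, Idi1, Fdps, Fdft1, Sqle, Cyp51, Hsd17b7, Ebp, Sc5d and Insig2, 11 of them enzymes. In AIM-KO livers all 3 HFD arrays at 20 weeks were Xist-high and no chow array was. With the Xist term, which rests on WT 20-week replicate 2 alone, none of the 25 genes was called there. Hmgcs1 then read 1.38 (limma adjusted p = 0.159), Hsd17b7 1.33 (adjusted p = 0.0669) and Ebp -0.47 (adjusted p = 0.201). Without the term these genes read 1.33, 1.42 and 0.22.

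Of 40 other genes of sterol metabolism, 33 were tested. In AIM-KO livers 5 rose and 5 fell at 12 weeks, against 11.4% and 6.78% of all genes. At 20 weeks 3 rose and 1 fell, against 4.29% and 2.67%. In WT livers 4 rose and none fell at 12 weeks, against 3.52% and 1.63% of all genes, and 6 rose and 1 fell at 20 weeks, against 8.72% and 5.77%. None differed between genotypes, where 0.0272% of all genes did on chow, 0.0749% at 12 weeks and 0.157% at 20 weeks. Lipa, the lysosomal lipase that frees cholesterol from its esters, rose in all 4, by 0.82 ± 0.14 and 0.73 ± 0.14 in AIM-KO livers at 12 and 20 weeks and by 1.03 ± 0.14 and 1.20 ± 0.14 in WT livers (limma adjusted p at most 0.00373). Fads1, a fatty acid desaturase, rose by 1.06 ± 0.13 at 20 weeks in AIM-KO livers and by 0.90 ± 0.13 and 0.95 ± 0.13 at 12 and 20 weeks in WT livers. On AIM-KO arrays Fads1 also read higher at 12 weeks (3757.7 to 4115.5) than on chow (1876.5 to 2963.3). At most 3 called genes are named per comparison, so a comparison not given for a gene is not one without a change. At 12 weeks in AIM-KO livers Cyp27a1, which makes an oxysterol, fell by 0.90 ± 0.17 and Srebf1, which encodes SREBP-1, by 0.80 ± 0.24. The cholesterol exporter Abca1 fell by 0.50 ± 0.11 at 20 weeks in AIM-KO livers. On AIM-KO arrays Abca1 also read lower at 12 weeks (1843.3 to 1911.1) than on chow (2443.5 to 2754.5). In WT livers Aacs, which activates acetoacetate for lipid synthesis, rose by 1.12 ± 0.26 at 12 weeks, and Ch25h, a sterol hydroxylase, by 1.24 ± 0.35 at 20 weeks.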

How the data were processed

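Liver RNA was hybridised to 18 arrays and grouped by the genotype and diet in the labels. The deposited values are probe set intensity on a linear scale, made with MAS5 per the submitters' processing notes, and the software version and scaling are not given in the sources used here. Single-array scanner values were not used, so no other background correction could be tried. Of 45101 probe sets 64 were controls, 34945 had 1 gene, 932 several and 9160 none, and only those with 1 gene were used, with 34741 symbols updated through a mouse gene table. Intensities were transformed to log2(value + 3.3), the 20th percentile of all values (42 values were 0), so changes of dim genes are understated. A probe set had to exceed the 40th percentile of at least 3 arrays, and the brightest stood for each of 14694 genes. Group means of all 18 arrays were fitted with limma 3.58.1 in R 4.3.3, with a variance trend (18.2 degrees of freedom), 2-sided tests and Benjamini-Hochberg adjustment over all genes. All adjusted p-values are from limma, and the median standard error was 0.22. Every listed gene could be named, and of the other pathway genes at most the 3 largest called changes per comparison. The members and lists were chosen with earlier results of these data known. The alternatives were other pseudocounts (0.825 and 13.2), quantile normalization, other dim filters, probe sets averaged per gene, no variance trend, a replicate block, Xist or actin ratio terms, only the groups compared, and leaving out each array. The fit was tested on simulated data.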

Additional observations from a re-analysis of the deposited data

Results flagged for a closer look

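For some of the 25 genes every AIM-KO array moved one way from its chow mean and every WT array the other way. They were 2 at 12 weeks, against 5.81% of all genes, and 5 at 20 weeks, against 5.24%. The differences of the changes, AIM-KO minus WT on the log2 scale, were tested with limma and none passed. At 12 weeks Insig1, which holds SREBP in the endoplasmic reticulum, had -0.64 ± 0.35 (adjusted p = 0.598) and the methyl oxidase Msmo1 had -0.98 ± 0.34 (adjusted p = 0.374). At 20 weeks the sterol isomerase Ebp had 0.74 ± 0.21 (adjusted p = 0.256) and the sterol dehydrogenase Nsdhl had 1.03 ± 0.29 (adjusted p = 0.263). Also at 20 weeks Idi1 had 1.04 ± 0.36 (adjusted p = 0.358), Lss had 1.05 ± 0.43 (adjusted p = 0.417) and Mvk had 0.80 ± 0.37 (adjusted p = 0.471). Another, dim probe set of Msmo1 (mean 14.1) fell in both genotypes at 12 weeks, by 0.78 in AIM-KO and 0.24 in WT livers. A dim probe set of Mvk (mean 17.9) gave a 20-week difference of -0.23. The other probe sets of Idi1 and Lss kept the signs of the ones used at 20 weeks. All 3 AIM-KO arrays and 1 of 3 WT arrays at 20 weeks were Xist-high, and Ebp and Nsdhl lie on the X chromosome. With Xist status as a term, which rests on WT 20-week replicate 2 alone, the 20-week differences were 0.27 for Ebp, 0.72 for Nsdhl, 0.88 for Idi1, 0.70 for Lss and 0.53 for Mvk, and none was called. Without WT chow replicate 1 in the WT chow mean, both 12-week genes and Ebp still moved in opposite directions on every array, while for Idi1, Lss, Mvk and Nsdhl at least 1 WT 20-week array was above that mean. Their differences were then 0.79, 0.74, 0.61 and 0.90, and that of Ebp was 0.73.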

How the results depend on the processing

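The number of called genes was recomputed under each alternative. Beyond the totals given above, the share of all genes called in each of these fits is not given here. The counts therefore do not show a shift particular to the listed genes. For AIM-KO against WT at 20 weeks (1 gene, Ebp) it was 0 with no dim filter, with the mean of probe sets, with no variance trend, with the Xist term, with the actin ratio term and with only the groups compared, and 0 to 2 when single arrays were left out: 0 without each array but WT replicate 2, and 2 without that one. For HFD against chow in AIM-KO livers at 12 weeks (12 genes) it was 6 to 12 with single arrays left out, the lowest without AIM-KO 12-week replicate 1. At 20 weeks in AIM-KO livers (8 genes) it was 3 with no variance trend, 0 with the Xist term, and 2 to 9 with single arrays left out, with 2 without AIM-KO 20-week replicate 1, 3 without replicate 2 and 4 without AIM-KO chow replicate 2. In WT livers at 12 weeks (3 genes) it was 0 with the mean of probe sets, 1 with no variance trend, and 0 to 8 with single arrays left out, with 8 without WT chow replicate 1, 1 without chow replicate 2 or 3, and 0 without 12-week replicate 1. In WT livers at 20 weeks (4 genes) it was 2 with the actin ratio term, where the calls of Ebp and Tm7sf2 were lost. It was 2 to 7 there with single arrays left out, with 7 without WT chow replicate 1 and 2 without 20-week replicate 1 or 3. For the difference of the 20-week change (0 genes, 11 at an unadjusted p under 0.05) it was 0 to 3, with 3 without WT 20-week replicate 2. The cause of these shifts was not tested. The replicate block kept all 28 calls and gave 14, 10, 4 and 6 genes for AIM-KO at 12 and 20 weeks and WT at 12 and 20 weeks, and 1 for AIM-KO against WT at 20 weeks. Deviations of same-numbered arrays correlated at -0.087 to 0.23 (median 0.04), and 9 of 18 arrays correlated best with an array of their own number. These values do not settle whether the replicate numbers pair the samples, and the labels do not say.

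Of the 28 called changes of single genes, 476 values under alternatives gave the same call in 362, lost it in 113 and turned the direction in 1: the fall of Scap at 12 weeks in AIM-KO livers became 0.14 with the mean of its probe sets (adjusted p = 0.756), 1 of the 2 being dim and higher. Hmgcs1, Mvd, Hsd17b7, Insig2 and Abcg5 at 12 weeks and Hmgcs1 and Hsd17b7 at 20 weeks in AIM-KO livers, and Hsd17b7 and Scap at 20 weeks in WT livers, kept their calls without any of the 6 arrays compared. With 3 arrays a group, precision limits what could be detected.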
